A study of Mus with 15 samples.

Results

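The Pou3f and Pou4f genes encode neuronal transcription factors of the POU family, and 6 of them were examined for ubiquitinated histone H2A in mouse thalamus: Pou3f1, Pou3f2, Pou3f3, Pou4f1, Pou4f2 and Pou4f3. They were taken by name, 6 of 21887 protein-coding genes placed on the chromosomes used here. A gene was counted as marked in a library when a deposited peak overlapped its window, which is the gene body plus 5 kb on each side on mm10. For each gene and library the length under peaks (covered bp), the widest overlapping peak and the number of peaks were recorded.

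Monoubiquitinated histone H2A (H2AK119ub, H2Aub) was profiled by ChIPmentation, a chromatin immunoprecipitation in which a transposase adds the sequencing adapters while the chromatin is on the beads. Thalami came from mice aged 2 to 4 months, and 3 to 4 thalami were pooled for each sample per the labels. Cocaine-treated mice gave 3 WT and 2 cKO libraries and saline-treated mice 3 of each genotype, and 4 further input chromatin samples were not analysed here. The WT mice carried the Maged1 Loxp allele and served as controls, and the Maged1cKO mice carried the same floxed allele deleted by a Cre driven from Vglut2, so that deletion is limited to Vglut2-lineage cells while the chromatin came from all thalamic cells. All mice had 3 days of saline injections and then 5 days of cocaine at 20 mg/kg or of saline. The study describes hemizygous males, and sex was part of no comparison.

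H2Aub is laid down by Polycomb repressive complex 1 and is associated with the silencing of developmental genes in cells of another lineage or a later stage. POU proteins bind DNA through a POU-specific domain joined to a homeodomain. The Pou3f factors act in neural progenitors and migrating neurons, and Pou3f1 also times myelination by Schwann cells. The Pou4f factors act at the end of differentiation in sensory and projection neurons: Pou4f1 in sensory ganglia and the medial habenula, Pou4f2 in retinal ganglion cells and Pou4f3 in the hair cells of the inner ear. The habenula lies beside the thalamus and also holds Vglut2 neurons. Peak lists hold no expression values, so the share of habenular cells in the samples could not be measured. In chromatin from mixed cells, a mark in fewer cells and a weaker mark in each cell cannot be told apart.

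The gene positions on mm10, from a RefSeq table of the same assembly, were chr4:124657646-124660655 for Pou3f1, chr4:22482095-22488366 for Pou3f2 and chr1:42695768-42700210 for Pou3f3. Pou4f1 lies at chr14:104461675-104468118, Pou4f2 at chr8:78433009-78436647 and Pou4f3 at chr18:42394597-42396093. They are small genes, 1497 to 6444 bp long, with windows of 11497 to 16444 bp, against a median window of 27169 bp over all coding genes. The table gives no strand and no exons, so positions below are given from the end of the gene with the lower or the higher coordinate, and the transcription start site was not identified. In 5 of the 6 windows at least 1 long noncoding RNA gene is annotated as well. Gm2164 and Gm38545 flank Pou3f1, Gm30731 lies 2181 bp beyond Pou3f2, D130079A08Rik lies 2338 bp from Pou4f1 and Gm31438 lies 2306 bp from Pou4f3. Pantr1 and 2900092D14Rik flank Pou3f3, and Gm46091 overlaps it, so that peaks there cannot be assigned to one of these transcripts. No other gene is annotated in the window of Pou4f2.

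The lists held 7271 to 80713 peaks and covered 4.24 to 27.6 Mb. They hold no read counts, so the depth of each library is unknown and a longer list cannot be separated from a deeper library. The replicates numbered 1 of both cKO groups stood apart, with 54653 and 80713 peaks against 7271 to 26055 in the other 9 libraries, and with the highest fold enrichments. The main comparisons of covered bp that include them are therefore given with and without them.

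All 6 genes carried an H2Aub peak in every one of the 11 libraries, which is 66 of 66 gene and library pairs. Of all coding genes, 6.76% had a peak in all 11 libraries. By group, the share of coding genes with a peak in every library was 16.6% for WT cocaine and 20.7% for cKO cocaine, and 10.4% for WT saline and 8.94% for cKO saline, while the POU genes numbered 6 of 6 in each group. At q at most 0.05 the pairs stayed at 66, while the share over all coding genes and libraries went from 26.3% to 23.7%. At q at most 0.01 they numbered 62, beside 14.6% of all such pairs, with Pou3f1 lost in WT saline replicate 3 and cKO saline replicate 3, and Pou3f2 lost in WT saline replicate 3 and cKO saline replicate 2. When each list was reduced to its 7271 strongest peaks there were 58 pairs, beside 13.6% over all coding genes, and all 8 losses fell in the cKO replicates 1, the longest lists.

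Pou4f1 stood at the top of the 6 genes. Peaks covered 79.9% ± 14.6 of its window (SD, n = 11), followed by Pou4f3 at 51.0% ± 11.2, Pou4f2 at 42.2% ± 12.9, Pou3f1 at 35.4% ± 14.3, Pou3f3 at 29.3% ± 8.82 and Pou3f2 at 25.1% ± 11.9 (SD, n = 11 each). Without the cKO replicates 1 the means were 83.4, 54.8, 43.9, 34.3, 27.7 and 21.8% in the same order (n = 9 libraries each). Pou4f1 exceeded Pou4f3 in 11 of 11 libraries, by 29.0 ± 7.85 percentage points (SD). The steps below it were of the size of their own spread. Pou4f3 exceeded Pou4f2 in 8 of 11 libraries by 8.79 ± 8.71 points, and Pou4f2 exceeded Pou3f1 in 6 of 11 by 6.81 ± 12.3 points. Pou3f1 exceeded Pou3f3 in 8 of 11 libraries by 6.12 ± 12.8 points, and Pou3f3 exceeded Pou3f2 in 8 of 11 by 4.15 ± 8.74 points. The 3 Pou4f genes thus had higher mean coverage than the 3 Pou3f genes examined, but the neighbouring genes Pou4f2 and Pou3f1 did not differ beyond their spread. Libraries were the same for all genes, so these differences were taken within libraries.

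Within each library, Pou4f1 had more covered bp than 99.0 to 99.7% of coding genes. The other 5 genes ranged from 93.9 to 99.1%, with the lowest value for Pou4f3 in cKO saline replicate 1. Together the 6 windows, 85305 bp in all, held 0.123 to 0.563% of the covered length of a library. A peak of 5 kb or wider was present over Pou4f1 in 7 libraries, over Pou4f2 and Pou4f3 in 3 each, over Pou3f1 in 2, over Pou3f2 in 1 and over Pou3f3 in none. None of the 6 had such a peak in all 11 libraries, against 0.151% of coding genes. At least 50% of the window was covered in all 11 libraries for 1 of the 6, Pou4f1, against 0.343% of coding genes. The 255 peaks over the 6 windows had a median width of 944 bp, against 246 bp for all peaks, and 6.27% of them had a q above 0.05, against 18.6% of all peaks. Of all 278739 peaks, 54653 and 80713 lay in the cKO replicates 1 of cocaine and saline, with median widths of 206 and 198 bp. Median widths in the other libraries were 242 to 429 bp. A wide peak is also more likely to overlap a window.

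**Figure D1:**
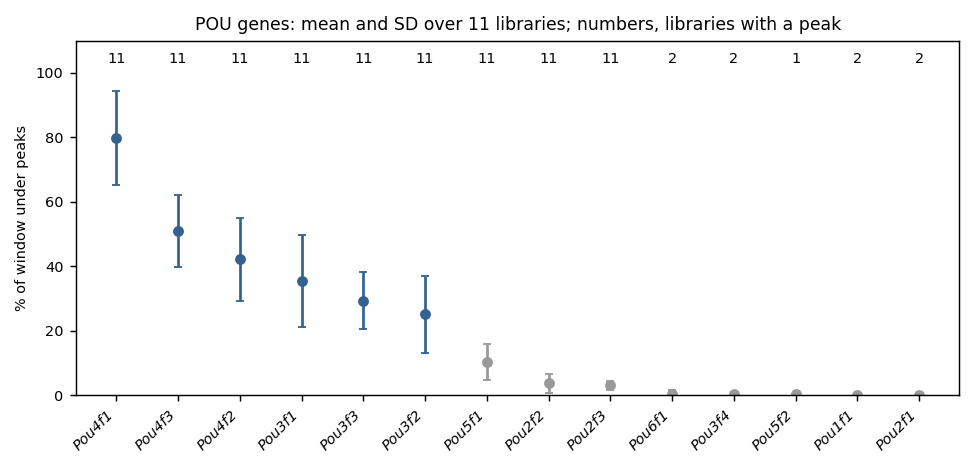
Percentage of the window (gene body plus 5 kb on each side) under H2Aub peaks for 14 POU genes, as the mean (points) and SD (bars, stopped at 0) over 11 libraries, with the number of libraries with a peak above each gene. The 6 Pou3f and Pou4f genes examined (blue) run from 79.9% for Pou4f1 to 25.1% for Pou3f2, and the 8 other POU genes (grey) have means of 10.2% or less.

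The other POU genes differed from one another. Of 8, 3 had a peak in all 11 libraries. These were Pou5f1, the pluripotency factor, with 10.2% ± 5.60 of its window covered, Pou2f2, a lymphoid factor, with 3.70% ± 2.95, and Pou2f3, the tuft cell factor, with 3.10% ± 1.39 (SD, n = 11). The remaining 5 (Pou1f1, Pou2f1, Pou3f4, Pou5f2 and Pou6f1) had a peak in 1 or 2 libraries, and their mean coverage was 0.422% or less. All of these peaks lay in the cKO replicates 1, whose lists had a peak at 50.4% and 58.9% of coding genes, against 12.6% to 27.8% in the other libraries. Pou3f4, an X-linked Pou3f gene outside the 6 examined, was among these, with 0 covered bp in every WT library and at most 269 bp in any library. The median POU gene outside the 6 was marked in 2.00 libraries, the same as the median coding gene. The Pou2f2 and Pou2f3 windows are over 90 kb long, so their percentages are low for their covered bp, which had medians of 3413 and 2659.

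Peaks covered most of the Pou4f1 window in every library, from 57.6% in cKO saline replicate 1 to 98.4% in WT cocaine replicate 1. In WT cocaine replicate 1 a single peak of 18251 bp spanned 98.4% of the window, and in WT cocaine replicates 2 and 3 the widest peaks were 11987 and 8149 bp. In WT saline the widest peaks were 5349, 4166 and 6960 bp, in cKO cocaine 4719 and 8661 bp, and in cKO saline 4535, 5652 and 3348 bp. The widest peaks of WT cocaine lay above those of WT saline without overlap, which held for 3 of the 6 genes (Pou3f1, Pou3f2 and Pou4f1) and for 34.1% of the 1479 coding genes with a peak in all 11 libraries. Those of the 2 cKO groups overlapped. The number of separate peaks over Pou4f1 ran from 1 to 3 after cocaine and 4 to 8 after saline in WT, and from 3 to 6 and 5 to 8 in the cKO. In WT these numbers overlapped between treatments for all the other genes of the 6, and the share over all coding genes was not computed. Over Pou4f1, joining peaks less than 2 kb apart gave a stretch with a median span of 17720 bp that ran from 9994 bp in cKO saline replicate 3 to 20255 bp in WT cocaine replicate 1. No base of the Pou4f1 window was free of peaks in all libraries, 91.3% of its bases were covered in 6 or more libraries and 25.3% (4164 bp) in all 11. The bases shared by all 11 libraries fell on both sides of the gene as well as within it, the longest run being 788 bp at chr14:104459288-104460075, which touches the end of D130079A08Rik. Coverage averaged 85.7% ± 17.9 in the lower-coordinate flank, 71.7% ± 14.8 in the gene body and 84.8% ± 18.1 in the higher-coordinate flank (SD, n = 11). The thinnest point was inside the gene, near its lower-coordinate end.

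**Figure D2:**
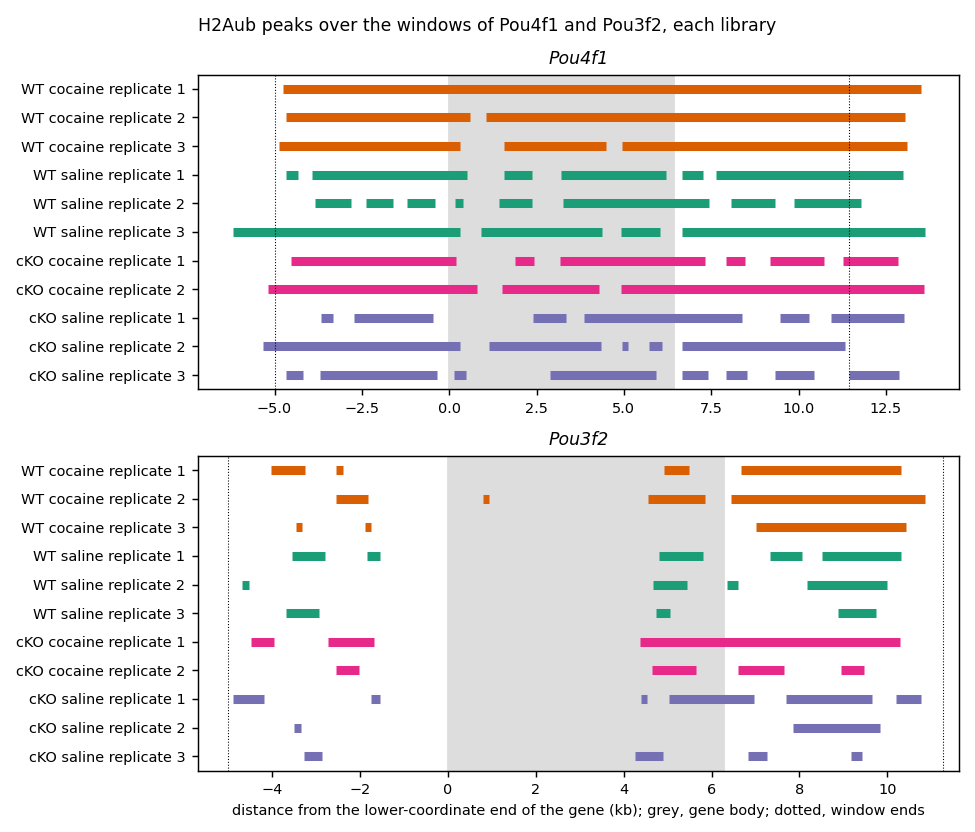
Position of each H2Aub peak over Pou4f1 (top) and Pou3f2 (bottom) in each of the 11 libraries, in kb from the lower-coordinate end of the gene, with the gene body in grey and the window ends dotted. Peaks span most of the Pou4f1 window, as 1 peak of 18251 bp in WT cocaine replicate 1 and as 8 peaks in WT saline replicate 2, whereas over Pou3f2 most of the gene body is bare in every library.

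The mark over Pou3f2 lay mostly to one side. Its gene body was covered by 13.1% ± 9.62, its lower-coordinate flank by 13.5% ± 8.62 and its higher-coordinate flank by 51.8% ± 25.2 (SD, n = 11). A stretch of 3334 bp inside the gene and another of 2344 bp across its lower-coordinate end held no peak in any library, and 38.6% of the window was never covered. The 246 bp covered in all 11 libraries, at chr4:22491265-22491510, lie inside the noncoding gene Gm30731 and not in Pou3f2. With the gene body alone as the window, Pou3f2 had no peak in WT cocaine replicate 3 and cKO saline replicate 2, while the other 5 genes kept a peak in all 11 libraries.

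The other 4 genes were marked most densely over the gene itself. Pou4f3, the shortest, had 93.2% ± 11.4 of its body covered and 74.0% ± 25.5 of its higher-coordinate flank, which holds the lower-coordinate end of Gm31438, but 15.3% ± 6.38 of its lower-coordinate flank (SD, n = 11). The 3069 bp at the outer end of that flank carried no peak in any library. Pou3f1 had 77.8% ± 19.3 of its body covered, and a run of 1136 bp inside the gene, chr4:124658339-124659474, was covered in all 11 libraries. Pou4f2 had 69.3% ± 20.1 of its body covered, with runs of 918 and 1501 bp in all 11 libraries. The second of these, chr8:78436549-78438049, crosses the higher-coordinate end of the gene. Pou3f3 had 57.5% ± 16.7 of its body covered and 5.71% ± 5.69 of its higher-coordinate flank, which holds 2900092D14Rik. Only 20 bp of the Pou3f3 window were covered in all 11 libraries, although 31.4% was covered in 6 or more, so that each library had a peak there but not over the same bases.

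**Figure D3:**
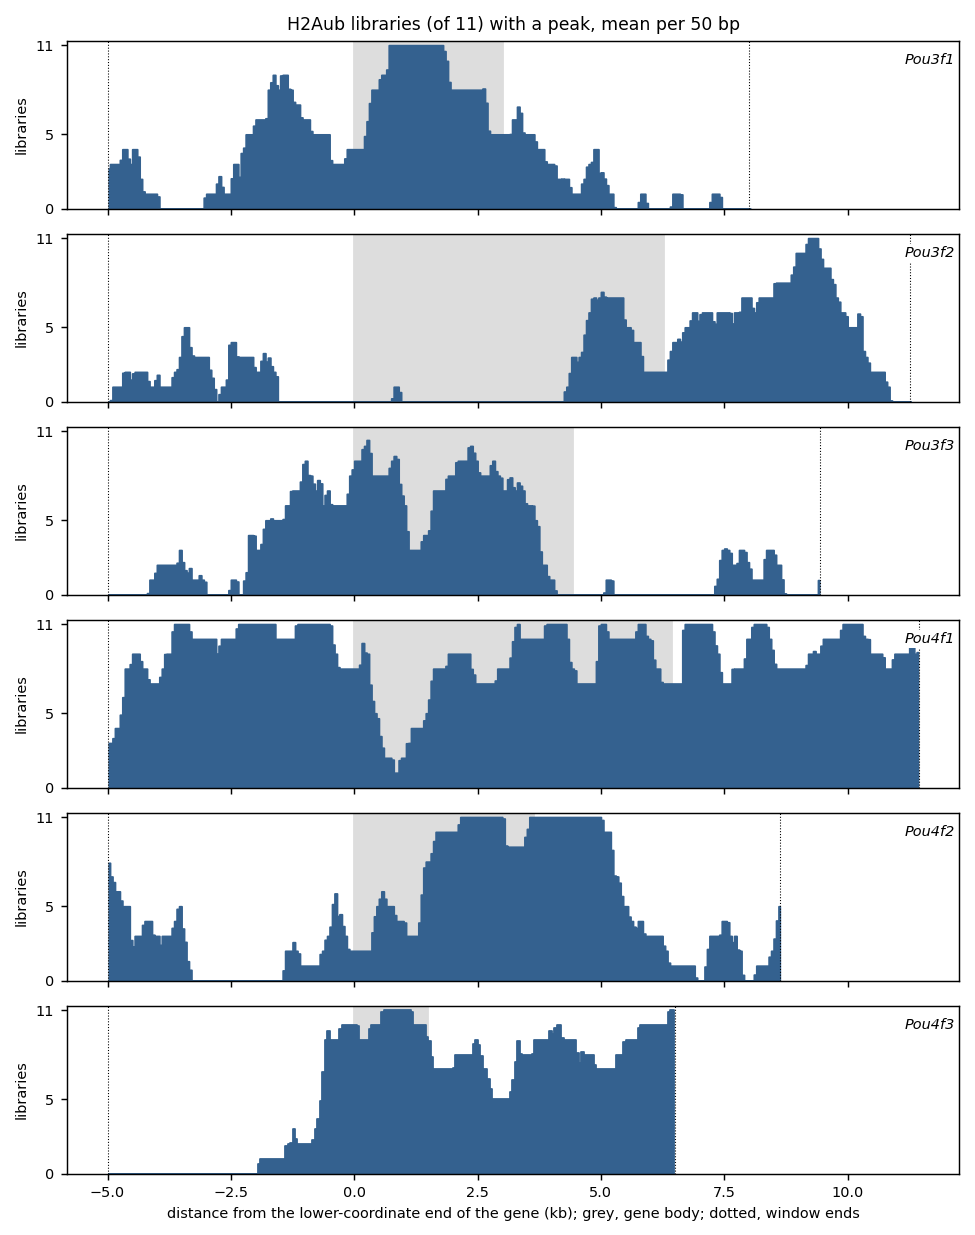
Number of H2Aub libraries, of 11, with a peak at each position of the 6 windows (mean per 50 bp), in kb from the lower-coordinate end of each gene, with the gene body in grey and the window ends dotted. Pou4f1 is covered in 6 or more libraries over 91.3% of its window, with a dip inside the gene, Pou3f1, Pou4f2 and Pou4f3 have a run covered in all 11 libraries over or at the end of the gene, and the Pou3f2 maximum lies beyond its higher-coordinate end.

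Peaks in the cKO replicates 1 were stronger by the peak caller's values. The highest fold enrichment over a POU window ranged from 5.65 to 8.65 in these 2 libraries and from 3.64 to 5.67 in the other 9. For Pou4f3 the stronger peaks went with less coverage, 30.6 and 36.7% of the window against 43.5 to 68.6% in the other 9 libraries. For Pou3f2 coverage in these 2 libraries was 34.0 and 46.1%, against 10.6 to 40.6% in the others. The part of library quality in these values was not tested.

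The first comparison asked whether repeated cocaine changed the H2Aub length over these genes in WT thalamus. All 6 genes had more covered bp on average after cocaine than after saline, by 1.16 to 1.78 times, but none passed the test. This was also the direction of 95.6% of the 1479 coding genes that, like these 6, had a peak in all 11 libraries, so that 6 of 6 was near the background. The test was an exact two-sided permutation over libraries with Benjamini-Hochberg adjustment over all genes tested, and with 3 against 3 libraries its smallest possible p was 0.10, so that no gene could pass 0.05.

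Pou3f1 showed the largest ratio. It had 8177, 6036 and 5642 covered bp in WT cocaine and 4831, 1961 and 4332 in WT saline, a difference of 2910.3 ± 1184.9 bp (SE, n = 3 and 3; exact permutation p = 0.10, adjusted p = 0.633). Every WT cocaine library lay above every WT saline library. This held for 1 of the 6 POU genes, for 15.5% of the 8200 genes tested and for 33.3% of genes with a peak in all 11 libraries, while 0.293% of genes tested showed the opposite separation. Its widest peak measured 7460, 5593 and 3979 bp in the WT cocaine libraries and 2504, 1411 and 3170 bp in the saline ones. Leaving out WT saline replicate 2 brought the difference to 2036.8 bp.

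Pou3f2, which with Pou3f3 serves the production of cortical neurons, had 5125, 6606 and 3692 covered bp in WT cocaine and 4565, 3011 and 1938 in WT saline, a difference of 1969.7 ± 1135.4 bp (SE; exact permutation p = 0.200). Pou3f3 had 4934, 5740 and 3688 bp after cocaine and 3022, 4856 and 2869 bp after saline, a difference of 1205 ± 873.9 bp (SE; exact permutation p = 0.200). In both genes the lowest cocaine library lay below the highest saline library. Without WT cocaine replicate 2 the Pou3f2 difference was 1237.2 bp and the Pou3f3 difference 728.7 bp, and without WT saline replicate 2 the latter was 1841.8 bp.

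Among the Pou4f genes, Pou4f1 had 16189, 15659 and 14595 covered bp in WT cocaine and 12978, 10806 and 14697 in WT saline, a difference of 2654 ± 1219.4 bp (SE; exact permutation p = 0.200). Only WT saline replicate 3 reached into the cocaine range, above the lowest cocaine library by less than the spread of either group. Pou4f2 had 9399, 5198 and 5607 bp after cocaine and 4899, 4929 and 7611 bp after saline, a difference of 921.7 ± 1611.5 bp (SE; exact permutation p = 0.500). That difference rested on the first cocaine library, and without it the sign turned to -410.5 bp. Pou4f3 had 7889, 6859 and 6036 bp after cocaine and 5001, 5668 and 6532 bp after saline, a difference of 1194.3 ± 695.5 bp (SE; exact permutation p = 0.200). Adjusted p was 0.792 for Pou3f2, Pou3f3, Pou4f1 and Pou4f3 and 1.00 for Pou4f2. Leaving out 1 library moved the difference by more than 1.5 times for Pou4f1 (1643.5 bp without WT saline replicate 2), for Pou4f3 (713.8 bp without WT cocaine replicate 1) and for Pou4f2 (1820.7 bp without WT saline replicate 3).

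**Figure D4:**
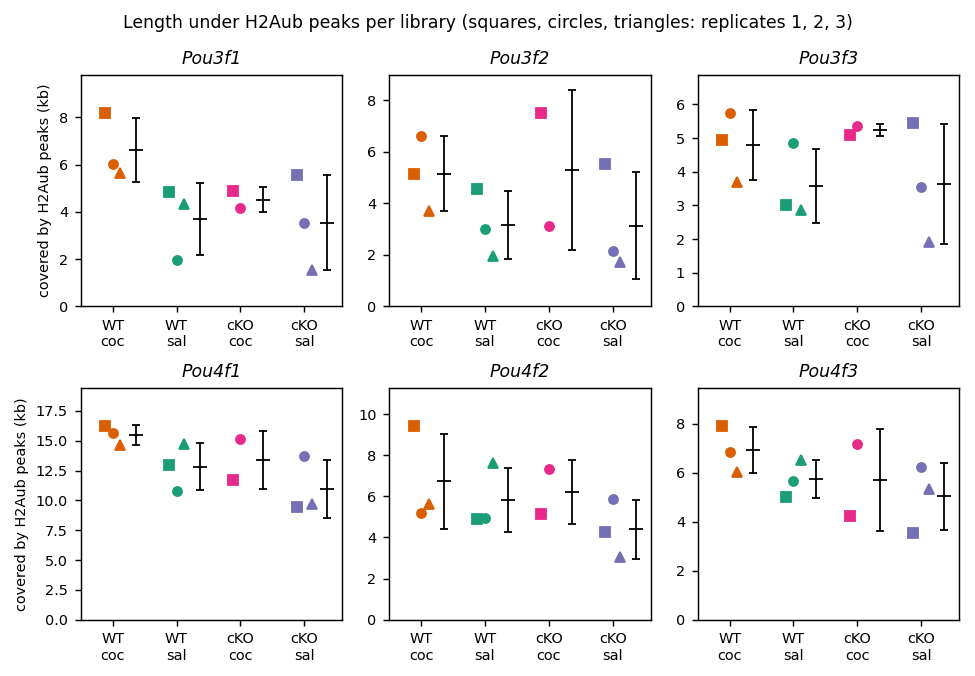
Length under H2Aub peaks (kb) in the windows of the 6 genes, for each library of the 4 groups, with the group mean and SD in black. WT cocaine lies above WT saline without overlap for Pou3f1 (5642 bp or more against 4831 bp or less) and overlaps it for the other 5 genes.

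The direction depended on the scale. WT cocaine lists covered 10.4 to 17.2 Mb and WT saline lists 5.55 to 11.1 Mb. Expressed per Mb covered in the whole library, 5 of the 6 genes were lower after cocaine, and 45.5% of coding genes with a peak in all 11 libraries were higher. Pou4f1 averaged 1129.9 ± 245.8 bp per Mb after cocaine and 1621.0 ± 403.5 after saline (SD, n = 3 each; p = 0.200, exact permutation), and Pou4f2 477.4 ± 113.4 and 744.7 ± 262.7 (p = 0.300 by the same permutation). Pou4f3 averaged 498.9 ± 71.9 and 749.4 ± 286.1 bp per Mb, Pou3f3 341.4 ± 49.8 and 496.0 ± 329.8, and Pou3f2 364.5 ± 71.9 and 394.7 ± 156.7 (SD, n = 3 each). Pou3f1 alone stayed higher after cocaine, at 473.5 ± 70.8 against 434.5 ± 80.9 bp per Mb, with overlapping libraries. No gene passed the test on this scale. Covered bp cannot exceed the window, and Pou4f1 had 98.4, 95.2 and 88.8% of its window covered in the WT cocaine libraries. The part of this limit in the Pou4f1 differences was not tested.

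**Figure D5:**
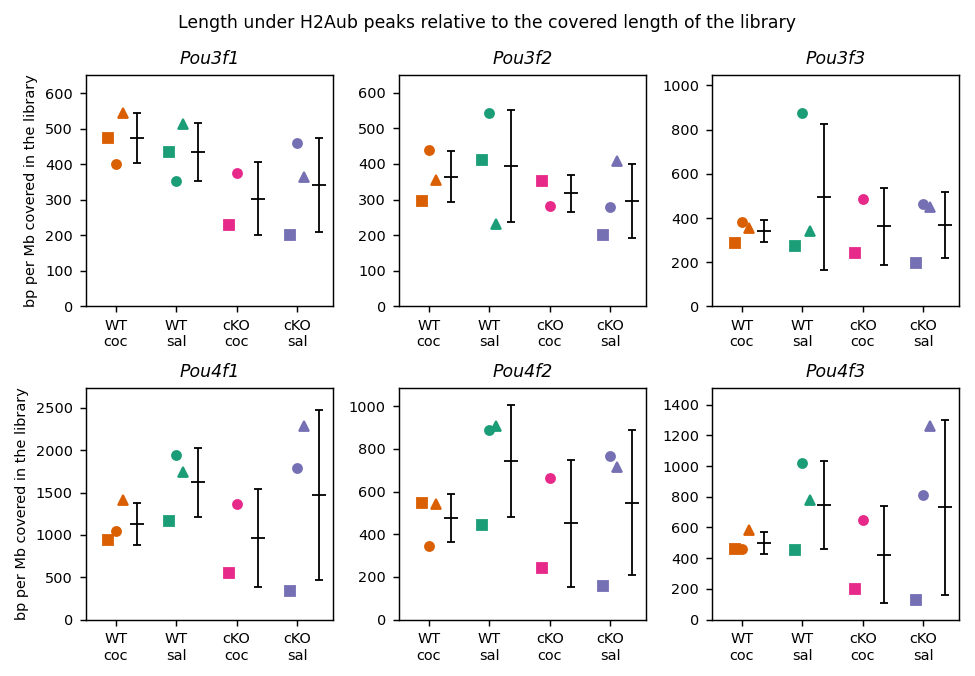
Length under H2Aub peaks in the windows of the 6 genes per Mb covered in the same library (bp per Mb), for each library of the 4 groups, with the group mean and SD in black. On this scale the WT cocaine mean is below the WT saline mean for 5 genes and above it for Pou3f1 (473.5 against 434.5), and the squares of both cKO groups, their replicates 1, are the lowest of their group for 5 genes.

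In the cKO, the same comparison had 2 cocaine and 3 saline libraries and the same smallest p of 0.10. All 6 genes again had more covered bp on average after cocaine, as did 92.2% of the 1479 coding genes with a peak in all 11 libraries, and all 6 overlapped between treatments. Cocaine lay above saline without overlap in 3.90% of the 14139 genes tested, in 15.6% of genes with a peak in all 11 libraries, and below it in 0.0778% of genes tested. Pou4f1 had 11690 and 15120 bp in cKO cocaine and 9467, 13748 and 9663 in cKO saline, a difference of 2445.7 ± 2211.0 bp (SE, n = 2 and 3; exact permutation p = 0.300). Pou3f2 had 7498 and 3108 bp after cocaine and 5540, 2146 and 1730 bp after saline, a difference of 2164.3 ± 2504.8 bp (SE; exact permutation p = 0.500). In each group of Pou3f2 the highest value was that of replicate 1, and without cKO cocaine replicate 1 the difference was -30.7 bp.

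Pou4f2 had 5123 and 7320 bp in cKO cocaine and 4289, 5888 and 3035 in cKO saline, a difference of 1817.5 ± 1374.2 bp (SE; exact permutation p = 0.300). Pou3f3 had 5103 and 5373 bp after cocaine and 5455, 3557 and 1903 bp after saline, a difference of 1599.7 ± 1035.0 bp (SE; exact permutation p = 0.400). The cocaine libraries of Pou3f3 were close together while its saline libraries spread over most of the range seen in the study. Pou3f1 had 4887 and 4148 bp after cocaine and 5552, 3533 and 1539 bp after saline, a difference of 976.2 ± 1216.0 bp (SE; exact permutation p = 0.700). Pou4f3 had 4220 and 7176 bp after cocaine and 3521, 6245 and 5327 bp after saline, a difference of 667 ± 1680.7 bp (SE; exact permutation p = 0.800). For Pou4f3 the replicates 1 were the lowest of both groups. All 6 adjusted p were 1.00. Single libraries moved these values by more than 1.5 times: leaving out 1 library in turn gave 730.7 to 4160.7 bp for Pou4f1 and 719 to 2916 for Pou4f2, both ends set by cKO cocaine replicates 2 and 1, and 732 to 2508 for Pou3f3, set by cKO saline replicates 3 and 1. The sign turned for Pou3f1, at -25.0 (without cKO saline replicate 3) to 1981.5 bp (without cKO saline replicate 1), and for Pou4f3, at -811 (without cKO cocaine replicate 2) to 2145 bp (without cKO cocaine replicate 1). Without both cKO replicates 1 the differences were 1612 bp for Pou3f1, 1170 for Pou3f2, 2643 for Pou3f3, 3414.5 for Pou4f1, 2858.5 for Pou4f2 and 1390 for Pou4f3. Per Mb covered, 5 of the 6 genes were lower after cocaine and Pou3f2 higher, while 47.3% of coding genes with a peak in all 11 libraries were higher. On this scale the directions of both Pou3f2 and Pou3f3 turned when both cKO replicates 1 were left out, a setting added after the data were seen: Pou3f2 went from 20.8 to -62.9 bp per Mb and Pou3f3 from -7.08 to 29.6, while the other 4 genes stayed lower after cocaine.

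The differences between treatments were then compared between genotypes by permuting treatment within genotype over 200 arrangements, with a smallest possible p of 0.00500. The cKO difference minus the WT difference was -1934.2 ± 1697.8 bp for Pou3f1 (SE; exact permutation p = 0.395), the largest of the 6, and leaving out 1 library moved it from -2935.3 (without cKO saline replicate 3) to -928.8 bp (without cKO saline replicate 1). It was 194.7 ± 2750.1 bp for Pou3f2, 394.7 ± 1354.6 for Pou3f3, -208.3 ± 2525.0 for Pou4f1, 895.8 ± 2117.8 for Pou4f2 and -527.3 ± 1818.9 for Pou4f3, with exact permutation p from 0.680 to 0.950. All adjusted p were 1.00. Without both cKO replicates 1 the values were -1298.3 bp for Pou3f1, -799.7 for Pou3f2, 1438 for Pou3f3, 760.5 for Pou4f1, 1936.8 for Pou4f2 and 195.7 for Pou4f3. No difference in the cocaine response between genotypes was detectable. The standard errors ran from 1354.6 to 2750.1 bp, and the smallest difference that this number of libraries could detect was not measured. Over all genes, 25 had an unadjusted p under 0.05 and 0 an adjusted p under 0.05 by the same test.

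The last comparison asked whether loss of Maged1 in Vglut2 cells changed the mark, as the mean of the cKO minus WT differences within cocaine and within saline. Pou4f1 had the largest difference, -1971.8 ± 1262.5 bp (SE; exact permutation p = 0.10, adjusted p = 0.595), with means of 13405 and 10959.3 bp in cKO cocaine and cKO saline against 15481 and 12827 bp in the WT groups. The cKO mean was lower in both treatments, and the libraries overlapped in both. Without the 2 cKO replicates 1, of 11690 and 9467 bp, the difference was -741.2 bp, and without cKO cocaine replicate 1 alone it was -1114.3 bp. Without cKO saline replicate 2 it was -2669 bp (exact permutation p = 0.0400, adjusted p = 0.423).

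The other values were -1133.7 ± 848.9 bp for Pou3f1 (exact permutation p = 0.245), -961.1 ± 1058.9 for Pou4f2 (exact permutation p = 0.405) and -966.3 ± 909.5 for Pou4f3 (exact permutation p = 0.250), and 64.7 ± 1375.1 for Pou3f2 (exact permutation p = 0.930) and 253.3 ± 677.3 for Pou3f3 (exact permutation p = 0.710; all SE). Thus 4 of the 6 genes had a negative difference, against 56.7% of the 1479 coding genes with a peak in all 11 libraries. Per Mb covered all 6 were negative, against 74.6% of those genes, the widest being Pou4f1 at -159.7 bp per Mb (exact permutation p = 0.665) and the one with the lowest p Pou3f1 at -131.8 bp per Mb (exact permutation p = 0.0650). Without both cKO replicates 1 the per Mb values were -60.4 for Pou3f1 (exact permutation p = 0.300) and -67.0 for Pou3f2, and positive for the other 4, at 326.9 for Pou4f1 (exact permutation p = 0.250), 218.4 for Pou4f3, 91.1 for Pou4f2 and 52.6 for Pou3f3. In bp without both cKO replicates 1 the differences were -1821.2 bp for Pou3f1, -1633.2 for Pou3f2, -133.3 for Pou3f3, -383.1 for Pou4f2 and 150.2 for Pou4f3. The sign of Pou3f2, Pou3f3 and Pou4f3 thus turned with these libraries, while Pou3f1, Pou4f1 and Pou4f2 stayed lower in the cKO in bp. Leaving out 1 library gave -1636.4 (without cKO saline replicate 1) to -633.2 bp (without cKO saline replicate 3) for Pou3f1. For Pou4f2 it gave -1510.3 (without cKO cocaine replicate 2) to -295 bp (without WT cocaine replicate 1). For Pou4f3 it gave -1705.3 (without cKO cocaine replicate 2) to -227.3 bp (without cKO cocaine replicate 1). None of the 6 had an unadjusted p under 0.05, against 1.89% of the 14474 coding genes tested (274 genes) and 5.21% of those with a peak in all 11 libraries. With equal numbers of peaks Pou3f1 differed by -3086 bp (exact permutation p = 0.0150, adjusted p = 0.532) and Pou4f1 by -5299.7 bp (exact permutation p = 0.0700). Under that setting Pou3f1 had no peak left in either cKO replicate 1 and Pou4f1 none in cKO saline replicate 1, and without both libraries the values were -1654.8 bp (exact permutation p = 0.125) and -610.1 bp (exact permutation p = 0.550). With the gene body alone Pou4f1 differed by -1009.2 bp (exact permutation p = 0.0350, adjusted p = 0.582). In the main test 0 genes had an adjusted p under 0.05.

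Genes that act with the POU factors in neural development had a peak in all 11 libraries in 13 of 17 cases, against 6.76% of all coding genes, with a median window of 17947 bp. Among them were Neurog2, a proneural factor, with 65.9% ± 11.4 of its window covered, Isl1, a LIM homeodomain partner of Pou4f1 in sensory neurons, with 57.9% ± 18.2, and Eomes, a factor of cortical intermediate progenitors, with 51.4% ± 9.96 (SD, n = 11). Atoh1, the hair cell and cerebellar proneural factor, had 44.4% ± 17.0, and Gfi1, which acts downstream of Pou4f3 in hair cells, had 51.5% ± 9.49. Egr2, the myelination factor that acts after Pou3f1, had 28.3% ± 6.94. Atoh7, which precedes Pou4f2 in the retina, had a peak in 2 libraries only, the cKO replicates 1. Sox10, Sox2 and Crh had one in 9, 10 and 10 libraries.

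Of 9 other genes expressed in the medial habenula, 3 had a peak in all 11 libraries: Nr4a2, an orphan nuclear receptor, with 38.3% ± 9.51 of its window covered, the nicotinic receptor gene Chrnb4 with 7.09% ± 3.32, and Chat, the acetylcholine synthesis enzyme, with 5.13% ± 2.28 (SD, n = 11). Gpr151, a habenular receptor gene, had no peak in any library, and Etv1 had one in 2, the cKO replicates 1. Of 10 thalamic genes, 5 had a peak in all 11 libraries. Gbx2 and Lhx2, developmental regulators of the thalamus, had 68.4% ± 12.7 and 45.7% ± 10.1 of their windows covered, in windows of 13215 and 40467 bp. Slc17a6, which encodes Vglut2, had 1.62% ± 1.14 of a window of 59297 bp and Tcf7l2 0.618% ± 0.934 of 201863 bp, each with a peak in 9 libraries. The median window was 27174 bp in the habenular list and 61045 bp in the thalamic list, so percentages are not comparable between genes of such different length. The median gene was marked in 9 libraries for the habenular list, in 10 for the thalamic list and in 11 for the developmental list.

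The genes most like each POU gene in how many coding genes it exceeded, library by library, were sought among 21880 coding genes. For Pou4f1 they were Tlx1, Hoxc10 and Lhx1, with mean absolute differences of 0.0573, 0.0748 and 0.0793 percentile points over 11 libraries and, for Tlx1, 80.8% of the window covered. For Pou4f2 they included Prdm14 and Foxd4, at 0.307 and 0.321 points, and for Pou4f3 Gm2102, Nkx2-6 and again Foxd4, at 0.308 to 0.331 points. For Pou3f1 they were Vgll2, Nr2f2 and Gbx1 at 0.346 to 0.387 points, for Pou3f3 Dusp4, Egr3 and Pfdn4 at 0.304 to 0.447 points, and for Pou3f2 Gm8909, Crtac1 and Tmem200b at 0.474 to 0.492 points. Percentiles near 100 leave little room for differences, so the values for Pou4f1 cannot be compared with those of the other genes.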

How the data were processed

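By the study's methods and the submitters' processing notes, the authors removed adapters using Cutadapt and aligned reads to mm10 using Bowtie2 (2.3.4.1). Broad peaks were then called per library by MACS2 (2.1.1.20160309.3), with total input as control. Each deposited list holds peak positions, a score (10 times the −log10 q, decimals dropped), the fold enrichment as a linear ratio, and the −log10 p-value and −log10 q-value. The study states a false discovery rate of 0.05, but q in the deposited lists reached 0.0997 and 18.6% of peaks lay above 0.05. All were used, and q at most 0.05 was an alternative. The study states a minimum depth for all samples, but the lists used here hold no read counts, so the depth of each library is unknown.

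Peaks on the 19 autosomes, X and Y were joined by position to gene windows with flanks of 5 kb, from a RefSeq table (GRCm38.p6). Overlapping lengths were summed per gene and library with Python 3.11.15 and numpy 2.4.6. A gene was tested if any library of the comparison had a peak. Group means were compared by exact two-sided permutation over libraries, with Benjamini-Hochberg adjustment over all coding genes tested. The code was tested on simulated data. The study describes the replicates as independent pools of thalami made in several batches, but the sources used here do not tie libraries to batches, so batch was in no test. Pairing by replicate number was checked: in WT the same-numbered correlations were -0.00844, 0.0650 and -0.00175, in the cKO, where the 2 cocaine libraries mirror each other around their mean, they were 0.478 and 0.370, and between genotypes they ran from -0.140 to 0.179. The numbers were not taken as pairs. Counts by direction were set beside coding genes with a peak in all 11 libraries, since a gene tested through 1 group only must differ. No libraries were duplicates. The 6 genes and the gene lists were chosen with earlier results of these data known. Named genes were the 6, the 4 lists (other POU genes, developmental partners, habenular and thalamic genes) and the 3 nearest genes to each of the 6 by within-library percentile. Some of these genes are not reported here and were left out of list counts. Sequences are not shown here. Alternatives covered q limits, equal list lengths, windows, overlap, scale, left-out libraries and a replicate block.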

Additional observations from a re-analysis of the deposited data

How the results depend on the processing

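Of the tests on covered bp, none passed an adjusted p of 0.05 under any setting, and q at most 0.05 or counting only peaks with at least 50% of their width in the window turned no sign. Pou3f1, Pou4f1 and Pou4f2 kept a negative cKO minus WT difference and Pou3f1 a positive WT cocaine difference under every single change of setting, but per Mb covered and without both cKO replicates 1 together, a pair of changes added after the data were seen, Pou4f1 and Pou4f2 turned positive. Where a sign turned, the cause was not tested.

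Per Mb covered in the library, cocaine minus saline became -30.2 (Pou3f2), -154.6 (Pou3f3), -491.2 (Pou4f1), -267.3 (Pou4f2) and -250.5 (Pou4f3) bp per Mb in WT and -39.1 (Pou3f1), -7.08 (Pou3f3), -513.1 (Pou4f1), -94.8 (Pou4f2) and -309.2 (Pou4f3) in the cKO, and cKO minus WT became -72.8 (Pou3f2) and -52.0 (Pou3f3). With equal numbers of peaks, cKO cocaine minus saline was -873.2 bp for Pou3f2 and -514.7 for Pou4f3, cKO minus WT was -3086 for Pou3f1 (exact permutation p = 0.0150, adjusted p = 0.532), -5299.7 for Pou4f1, -2163.2 for Pou3f2 (exact permutation p = 0.0300, adjusted p = 0.623) and -1404.3 for Pou3f3, the difference between genotypes was -3147.8 for Pou3f2 (exact permutation p = 0.0200, adjusted p = 1.00), -1202 for Pou3f3 and -145.8 for Pou4f2, and genes with a peak in every library numbered 1 in cKO cocaine and 3 in cKO saline. Under equal numbers of peaks Pou3f2, Pou4f2 and Pou4f3 had no peak in cKO cocaine replicate 1, and Pou4f1 none in cKO saline replicate 1. Pou3f1 and Pou3f3 had none in either cKO replicate 1. Without both of these libraries, cKO minus WT was then -1654.8 for Pou3f1 (exact permutation p = 0.125), -1670.3 for Pou3f2 (exact permutation p = 0.175), 356.7 for Pou3f3 and -610.1 for Pou4f1, the difference between genotypes -2084.7 for Pou3f2 (exact permutation p = 0.150), 500 for Pou3f3 and 1910.2 for Pou4f2, and cKO cocaine minus saline 190 for Pou3f2 and 1390 for Pou4f3. With the gene body alone, WT Pou3f2 was -30.3 bp, cKO minus WT was -300.1 for Pou3f3, 68.4 for Pou4f3 and -1009.2 for Pou4f1 (exact permutation p = 0.0350, adjusted p = 0.582), and the difference between genotypes was -550.2 for Pou3f3 and -24.7 for Pou4f2. At q at most 0.01 that difference was -1040.3 for Pou3f3 and 42.8 for Pou4f1, and with 10 kb flanks 121.2 for Pou4f1 and 1147.3 for Pou4f3. The settings for this difference were added after the data were seen. Without both cKO replicates 1, cKO minus WT was -1633.2 (Pou3f2), -133.3 (Pou3f3) and 150.2 bp (Pou4f3), and the difference between genotypes -799.7 (Pou3f2), 760.5 (Pou4f1) and 195.7 bp (Pou4f3).

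With the replicate number as a block, the paired values turned sign for Pou3f1 in the cKO (-25.0 bp), for cKO minus WT in Pou3f2 (-297.6) and Pou3f3 (-21.5), and for the difference between genotypes in Pou3f2 (-509.7) and Pou3f3 (-473). The block changed no call.

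Leaving out 1 library gave -410.5 to 1820.7 bp for WT Pou4f2. In the cKO it gave -25.0 (without saline replicate 3) to 1981.5 for Pou3f1, -30.7 (without cocaine replicate 1) to 4359.3 for Pou3f2 and -811 (without cocaine replicate 2) to 2145 for Pou4f3. For cKO minus WT it gave -1032.8 to 1162.2 (without cKO cocaine replicates 1 and 2 in turn) for Pou3f2 and -200.8 to 687.2 (without cKO saline replicates 1 and 3 in turn) for Pou3f3. For the difference between genotypes it gave -2000.3 to 2389.7 (Pou3f2), -473 to 1303 (Pou3f3), -1923.3 to 1506.7 (Pou4f1), -202.7 to 2228 (Pou4f2) and -2005.3 to 950.7 (Pou4f3), the ends being set by cKO cocaine replicates 1 and 2, except for Pou3f3 (cKO saline replicates 3 and 1) and the upper end of Pou4f2 (WT cocaine replicate 1).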

Other observations

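Of the 43 genes of the 4 lists with a peak in any library, 4 had an unadjusted p under 0.05 for cKO minus WT within treatment, against 1.89% of coding genes tested. Of the 4, 3 had a peak in all 11 libraries, a class in which 5.21% of coding genes had such a p. That class held 3 other POU genes, 13 developmental partners, 3 habenular genes and 5 thalamic genes of the lists. The 4 genes were picked here after their values were seen. Neurog1, a proneural factor of sensory lineages, had 6298, 4810 and 4567 covered bp in WT cocaine, 6078, 3061 and 5807 in WT saline, 2779 and 3739 in cKO cocaine and 2321, 2984 and 1224 in cKO saline. The difference was -2385.8 bp (exact permutation p = 0.00500, the smallest the design allows; adjusted p = 0.595). Sox2, a neural progenitor factor, had 2967, 2490 and 2704 bp in WT cocaine, 1955, 1893 and 2716 in WT saline, 1995 and 1376 in cKO cocaine and 1516, 874 and 0 in cKO saline, a difference of -1213.1 bp (exact permutation p = 0.00500, adjusted p = 0.595). Without both cKO replicates 1 these differences were -2182 bp (exact permutation p = 0.050) and -1547.7 bp (exact permutation p = 0.0250), and per Mb covered they were -241.6 and -157.0 bp.

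Lhx2 and Gbx2, developmental regulators of the thalamus, differed by -4620.2 bp (exact permutation p = 0.0300) and -1736.4 bp (exact permutation p = 0.0450), each with an adjusted p of 0.595. Without both cKO replicates 1 the values were -4032.2 bp (exact permutation p = 0.10) and -1181.4 bp (exact permutation p = 0.150). Per Mb covered they were -482.5 bp (exact permutation p = 0.265) and -129.6 bp (exact permutation p = 0.615). None of the 4 passed the adjusted threshold.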
